A study of Mus musculus with 3 samples.

Results

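The C1q-like proteins C1ql1, C1ql2 and C1ql3 and their receptor Adgrb3 were followed across the cell classes of the mouse brain by single-cell RNA sequencing (scRNA-seq). The 4 genes were taken by symbol from the 31053 genes of the count matrix. They were chosen by their UMI levels across the cell classes in earlier results of these data, which placed them in oligodendrocyte precursors, so these levels are given as a description and no test was run on them. The tissue came from mice aged 10 weeks (strain C56BL6 in the labels, C57BL/6 in the methods) in 3 groups: healthy controls, mice with ischemic stroke (occlusion of the middle cerebral artery) and mice with hemorrhagic stroke (collagenase injected into the striatum). Several animals were pooled into 1 library per group, the methods collected target tissue after removal of the brain, and the labels give no time after stroke. The matrix tells the 3 libraries apart by a number after the barcode, but no source used here says which number is which group. The cells were therefore treated as 1 pooled sample, the value of each library is shown, and no group was compared with another.

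C1ql proteins are small secreted proteins with a globular domain like that of complement C1q, and they organize synapses from the extracellular space. They bind Adgrb3 (also known as BAI3), an adhesion G protein-coupled receptor of the brain angiogenesis inhibitor family that sits in the membrane of the receiving cell. C1ql1 is best known from climbing fibers, which use it to hold their synapses on Purkinje cells, and C1ql2 and C1ql3 from hippocampal mossy fibers, where they act with neurexins and kainate receptors. Oligodendrocyte precursors, the dividing glia that give rise to myelinating oligodendrocytes, receive synapses from neurons themselves.

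In GRCm38 (mm10), C1ql1 (ENSMUSG00000045532) is a protein-coding gene on the minus strand at chr11:102939264-102946688, and C1ql2 (ENSMUSG00000036907) lies on the plus strand at chr1:120340582-120343174. C1ql3 (ENSMUSG00000049630) lies on the minus strand at chr2:13003457-13011806. Adgrb3 (ENSMUSG00000033569) spans 762232 bases on the minus strand at chr1:25067476-25829707, with 11 annotated transcripts, whereas each ligand has 1. The promoters of C1ql2 and Adgrb3 are shown because these genes lay at opposite ends of the range described here, C1ql2 being found mainly in 1 class and Adgrb3 being shared by several. Each is given from 250 bases before to 50 bases after the start (RefSeq, GRCm38.p6), at chr1:120340332-120340631 (plus strand) and chr1:25829658-25829957 (minus strand). Capitals mark the E-box CANNTG, the letters read by basic helix-loop-helix factors such as Olig2. ACAAT, the core read by Sox factors, was searched on both strands too and had no match in either window. The C1ql3 window is not shown because its RefSeq start lies within the GENCODE gene. It held 1 match of CANNTG and 1 of ACAAT.
C1ql2: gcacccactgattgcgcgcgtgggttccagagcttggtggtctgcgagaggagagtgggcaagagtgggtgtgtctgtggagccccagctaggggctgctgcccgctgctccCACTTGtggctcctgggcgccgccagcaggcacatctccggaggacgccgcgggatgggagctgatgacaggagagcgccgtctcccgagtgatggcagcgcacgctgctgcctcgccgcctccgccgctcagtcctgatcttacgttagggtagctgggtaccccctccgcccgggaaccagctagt
Adgrb3: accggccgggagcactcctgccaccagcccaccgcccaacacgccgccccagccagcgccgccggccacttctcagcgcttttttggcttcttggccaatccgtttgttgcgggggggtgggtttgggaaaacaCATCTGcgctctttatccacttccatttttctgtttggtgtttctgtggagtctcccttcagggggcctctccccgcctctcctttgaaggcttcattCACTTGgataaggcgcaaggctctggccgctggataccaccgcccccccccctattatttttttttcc
The C1ql2 window held 1 E-box and the Adgrb3 window 2, and both held CACTTG. Of 32851 RefSeq promoters of this length, 72.3% held CANNTG and 31% held ACAAT, so such matches are common. GC content was 67.3% in the C1ql2 window and 59% in the Adgrb3 window, against a median of 52.7% over all promoters.

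Of 35968 barcodes, 31982 had at least 1000 unique molecular identifiers (UMIs, each 1 captured RNA molecule) and at most 30% mitochondrial counts. The libraries held 69270514 to 105957232 UMIs, with a median of 6147 UMIs per cell kept. Cells were classed by UMIs of marker genes, and 14 classes held at least 50 cells. Levels are given in CPM, the UMIs of a gene summed over a class and scaled to a class total of 1000000. Each transcript of any length is tagged once at its 3' end, so no length scaling applies when genes are compared. All intervals are exact 95% intervals (Poisson for CPM, Clopper-Pearson for shares of cells), and they cover counting error only. The libraries differed in makeup: library 3 held 814 of 835 endothelial cells, 158 of 180 mural cells and 27 of 2705 T and NK cells but 0 of 56 neurons. Of the barcode sequences, 110 occurred in more than 1 library, and 0 precursors carried one of them.

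Precursors were cells with a UMI of Pdgfra, the receptor for platelet-derived growth factor A, and of Lhfpl3, a membrane protein of this lineage. The gate was passed by 386 cells. Of these, 57 also passed a gate outside the lineage, 31 of them the microglia gate, or all gates of the lineage, and were set aside. A further 20 and 23 also passed the gates of committed precursors (Bmp4, Gpr17, Enpp6) or of mature oligodendrocytes (Mog, Mag, Opalin, Ermn, Cldn11) and were kept apart as overlap stages. The remaining 286 precursors came as 138, 105 and 43 cells from libraries 1, 2 and 3, and held a median of 5760 UMIs (1316 to 12319). Precursor genes that the gate did not use were common in these cells. Ptprz1, a receptor phosphatase, was found in 100% of the 286 cells and the transcription factor Olig1 in 99.7%. The NG2 proteoglycan gene Cspg4 was found in 90.9% and Cacng4, an auxiliary subunit of AMPA receptors, in 90.6%. Elsewhere, Ptprz1 was found in 90% of astrocytes, Olig1 in 91.6% of mature oligodendrocytes and Cspg4 in 73.3% of mural cells. Myelin genes were low, with Mog at 20.8 CPM, against 1642 CPM in mature oligodendrocytes. The gates partly fix this, since Mog is a marker of the mature gate and cells passing that gate were kept apart.

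Precursors held all 3 ligands together with the receptor. Of the UMIs in all cells kept, precursors held 58.5% for C1ql1, 70.3% for C1ql2, 12.1% for C1ql3 and 13.9% for Adgrb3, while making up 0.894% of the cells. The whole oligodendrocyte lineage held 79.9%, 82.7%, 58.1% and 39.8%. C1ql1 was the most abundant of the 4 genes in precursors, at 1041.9 CPM (994 to 1091.8), about the level of the gate gene Pdgfra (1116.1 CPM). C1ql3 reached 148 CPM (131 to 168), C1ql2 118 CPM (102 to 136) and Adgrb3 90.2 CPM (76.4 to 106).

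**Figure D1:**
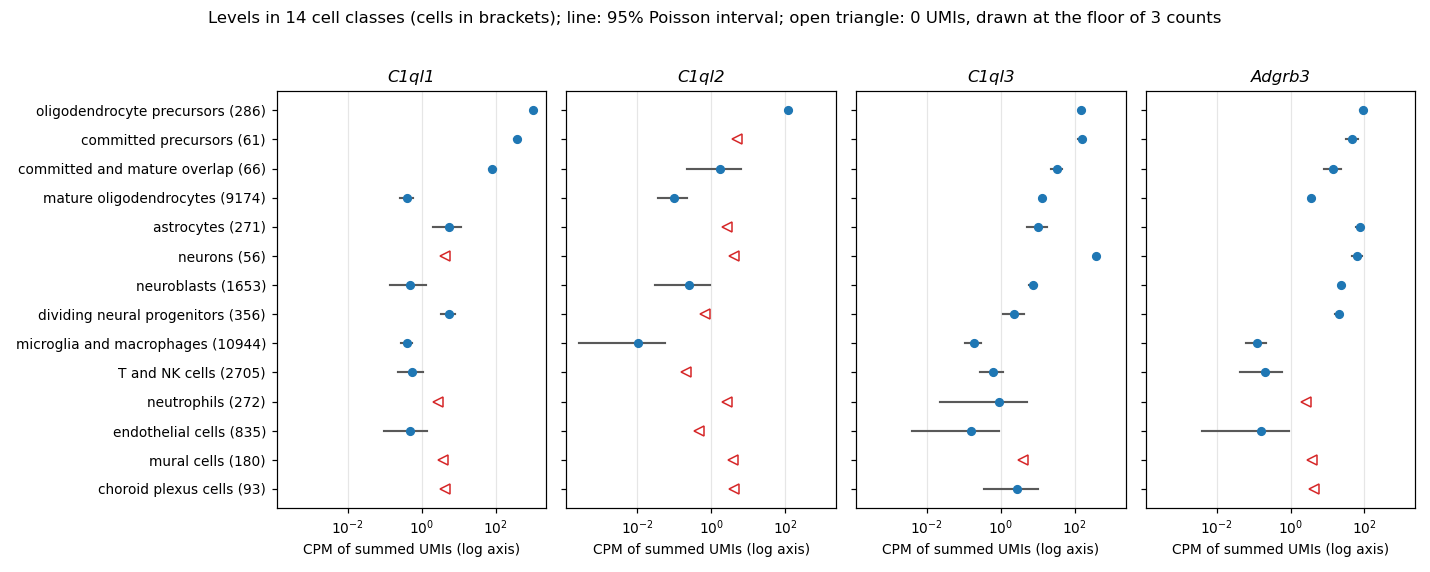
CPM of the 4 genes in 14 cell classes on log axes, with the number of cells in brackets. Points are summed UMIs over all libraries, lines exact 95% Poisson intervals, and open triangles classes with 0 UMIs, drawn at the floor of 3 counts. C1ql1 and C1ql2 peaked in precursors at 1041.9 and 118 CPM, C1ql3 peaked in neurons at 368 CPM, and Adgrb3 lay between 46.2 and 90.2 CPM in precursors, astrocytes, neurons and committed precursors.

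C1ql1 marked precursors and the stage that follows. It was found in 264 of 286 precursors (92.3%) and 50 of 61 committed precursors (82%), which were gated by Gpr17, Bmp4 and Enpp6. Gpr17 alone does not part these stages, as it was also found in 82.9% of precursors. The C1ql1 level in committed precursors was 371 CPM (324 to 423), 2.81-fold (2.44 to 3.24) below that of precursors. In the next stage, cells passing both the committed and the mature gates, it was 82 CPM (66.1 to 101). In 9174 mature oligodendrocytes it was 0.399 CPM (0.256 to 0.594), and precursors exceeded them 2609-fold (1747 to 4083). These 4 levels stood in the same order in each library, and intervals of neighbouring stages did not overlap in the pooled cells.

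Outside the lineage C1ql1 was low. T and NK cells, which should lack all 4 genes, served as the background, with a median of 4794 UMIs. Of these 2705 cells, 0.296% held a C1ql1 UMI (0.128 to 0.582%), or 0.542 CPM, and the mature oligodendrocytes, microglia, neuroblasts and endothelial cells did not differ from this beyond their intervals. Astrocytes held 5.50 CPM (2.02 to 12) and dividing neural progenitors 5.35 CPM (3.39 to 8.03). These were 10.2-fold (2.9 to 33.4) and 9.88-fold (4.27 to 25.6) the level of T and NK cells, and rested on 6 and 18 cells with a UMI. Only 27 of the 2705 T and NK cells were from library 3, against 135 of 271 astrocytes and 122 of 356 dividing progenitors. The background thus came mostly from libraries 1 and 2. After every cell was thinned to 1000 UMIs, a C1ql1 UMI was left in 1 of 271 astrocytes (0.369%) and 4 of 356 dividing progenitors (1.12%), against 3 of 2705 T and NK cells (0.111%). The intervals were 0.00934 to 2.04% for astrocytes, 0.307 to 2.85% for dividing progenitors and 0.0229 to 0.324% for T and NK cells, so that both overlapped the background, the second only at its edge. A C1ql1 UMI was found in 0 of 56 neurons, so at 3 counts the cells with a UMI could be up to 5.36% of them.

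C1ql2 was narrower still. Of its 283 UMIs in the cells kept, 199 were in precursors, where 124 of 286 cells held at least 1 (43.4%). In committed precursors a UMI was found in 0 of 61 cells, so at 3 counts the cells with a UMI could be up to 4.92% of them, although these cells were sequenced more deeply (median 9082 UMIs). Against the floor of 3 counts over that class, precursors were 23.9-fold higher, a ratio that leaves out counting error. The exact upper limit in committed precursors was 6.09 CPM, against 118 CPM (102 to 136) in precursors. Cells caught between both gates fell between them, with 46.2 CPM (20 to 91.1) in the 20 cells of the precursor and committed overlap. Mature oligodendrocytes held 6 C1ql2 UMIs in 9174 cells (0.0998 CPM), microglia and macrophages 1 in 10944 cells, and neuroblasts 2 in 1653 cells. Astrocytes, neurons, T and NK cells, neutrophils, endothelial and mural cells, choroid plexus cells and dividing progenitors held 0. The drop from precursors to committed precursors was thus larger for C1ql2 than for C1ql1, whose ratio had an upper limit of 3.24. The comparison is one of pooled cells, and committed precursors came mostly from library 1 (39, 17 and 5 cells).

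C1ql3 did not fall between these stages. It was 148 CPM in precursors and 153 CPM (124 to 188) in committed precursors, a ratio of 0.967 (0.759 to 1.24), and was found in 49.3% and 54.1% of the cells. It was 33 CPM (23.2 to 45.4) in the committed and mature overlap and 12.8 CPM (11.9 to 13.7) in mature oligodendrocytes. A C1ql3 UMI was found in 659 of these mature cells (7.18%), which together held 37.2% of the C1ql3 UMIs of the cells kept. This lay above the background of T and NK cells, at 0.296% of cells and 0.609 CPM, and it did so after thinning as well (1.26%, 1.05 to 1.51%, against 0.0739%, 0.00896 to 0.267%). C1ql1 and C1ql2 showed no such tail in the same cells.

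**Figure D2:**
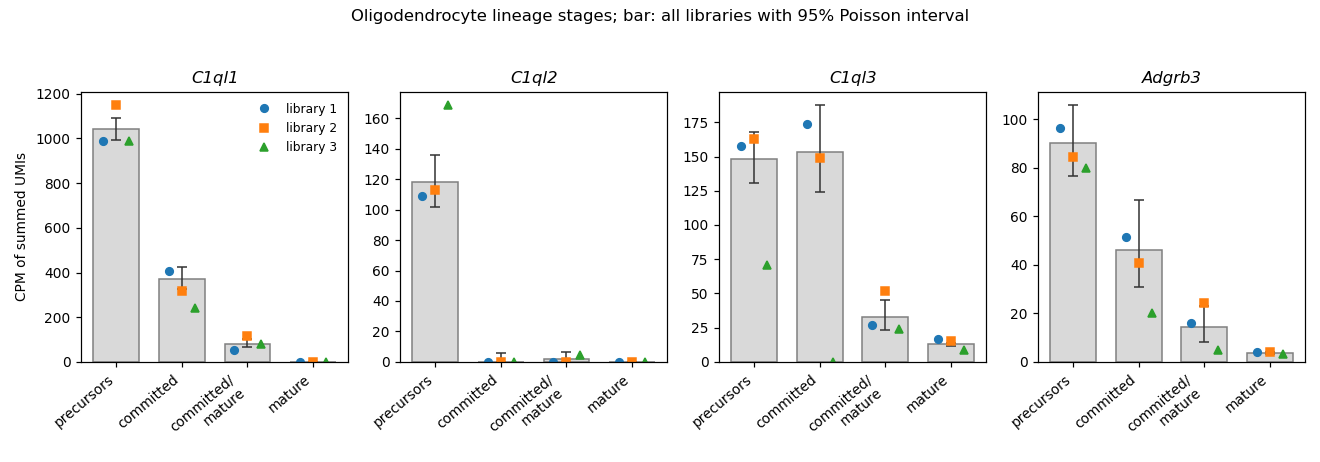
CPM of the 4 genes along the oligodendrocyte lineage, from precursors to mature cells. Bars are all libraries together with exact 95% Poisson intervals, and symbols are the libraries. C1ql2 was 118 CPM in precursors and 0 in committed precursors, C1ql3 was 148 and 153 CPM, and C1ql1 and Adgrb3 lay between, at 1041.9 and 371 CPM and at 90.2 and 46.2 CPM.

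The highest C1ql3 level was in neurons, at 368 CPM (325 to 416), with a UMI in 41 of 56 cells (73.2%). It was 2.48-fold (2.08 to 2.96) that of precursors. These neurons were few and of a particular kind. The gate used Snap25, Syt1, Snhg11, Rbfox3 and Slc17a7, yet Slc17a7, the vesicular glutamate transporter of cortical neurons, was found in 1 cell. Gad1, which makes GABA, was found in 85.7% of them and the hormone gene Avp, for vasopressin, in 60.7%. In the 41 neurons of library 1 C1ql3 was 403 CPM (350 to 461), and in the 15 of library 2 it was 273 CPM (203 to 358). Neuroblasts held 7.40 CPM, but 50 of their 59 C1ql3 UMIs were in 9 cells with at least 3 UMIs each. All 9 cells (100%) held Snhg11, a gene of mature neurons found in 2.48% of all neuroblasts, and 4 of the 9 passed the neuron gate as well. Among cells that passed no gate, 22 cells held 121 of 168 C1ql3 UMIs, and 90.9% of those cells held Snhg11. These 2 checks were made after the values had been seen. Snhg11 was also found in 28% of the 286 precursors, at 80.7 CPM, so by itself it does not set neurons apart from them. Of 13 ependymal cells, too few for the ranking, 2 held 20 C1ql3 UMIs.

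Adgrb3, the receptor, was the most widely shared of the 4. Precursors (90.2 CPM, 38.1% of cells), astrocytes (74.2 CPM, 24%) and neurons (63.9 CPM, 42.9%) ranked highest, followed by committed precursors, and each overlapped its neighbour in rank. The ratio of precursors to astrocytes was 1.22 (0.922 to 1.61), that of neurons to astrocytes 0.861 (0.585 to 1.26) and that of neurons to precursors 0.709 (0.497 to 0.995). Which of them came first depended on the processing. After thinning to 1000 UMIs in a single random draw, astrocytes led at 140 CPM (99.2 to 192), against 90.9 CPM (59.4 to 133) in precursors. These intervals overlapped. Without library 1, neurons led at 96.2 CPM. Committed precursors held 46.2 CPM (30.7 to 66.8), or 1.95-fold (1.3 to 3.04) less than precursors. Neuroblasts held 23.2 CPM (20 to 26.8) and dividing neural progenitors 20 CPM (16 to 24.7). Mature oligodendrocytes held 3.64 CPM (3.18 to 4.16), 24.7-fold (20 to 30.6) less than precursors. T and NK cells held 0.203 CPM, with a UMI in 0.111% of the cells.

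Adgrb3 differed within astrocytes and within mature oligodendrocytes, by splits chosen after its values were known. The 144 astrocytes with a UMI of Agt, the angiotensinogen gene, held 128 CPM (97.4 to 165), and the 127 without it held 34.9 CPM (21.9 to 52.8). The libraries differed as well. Astrocytes of library 1 held 175 CPM (118 to 250), those of library 2 83.8 CPM (53.7 to 125) and those of library 3 42.6 CPM (28.1 to 62). The share of Agt cells moved along with this, at 49 of 56, 49 of 80 and 46 of 135 astrocytes. Among Agt astrocytes alone, the libraries still held 234, 150 and 58.8 CPM, and among the others 38.7, 36.1 and 33.9 CPM. The intervals overlapped in library 3, at 31.3 to 101 CPM with and 18.6 to 56.9 CPM without Agt, and library 1 had 7 astrocytes without Agt. In mature oligodendrocytes, Adgrb3 was 8.50 CPM (7.18 to 9.99) in the 1896 cells with a UMI of Klk6, a secreted protease, and 1.68 CPM (1.32 to 2.12) in the 7278 without. This difference was present in each library, with 8.31, 8.49 and 8.66 CPM against 1.84, 2.16 and 1.19 CPM. C1ql3 had overlapping intervals in this split, at 13 CPM (11.3 to 14.8) and 12.7 CPM (11.7 to 13.8).

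Within precursors, C1ql1 was detected many times per cell and the other genes rarely. The lowest, median and highest number of C1ql1 UMIs in a precursor was 0, 6 and 19, and 144 of 286 cells held more than 5. For C1ql2 the highest number was 5 and for Adgrb3 it was 5, while C1ql3 reached 7. The median of each of these 3 genes was 0. Since 162, 145 and 177 precursors held no UMI of C1ql2, C1ql3 and Adgrb3, cells without a UMI cannot be told from cells without the transcript at this depth. In the third of precursors with the fewest UMIs, C1ql2 was found in 31.2% of cells, and in the third with the most in 51.6%, while the levels were 130 CPM (95.1 to 173) and 107 CPM (85.6 to 133).

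**Figure D3:**
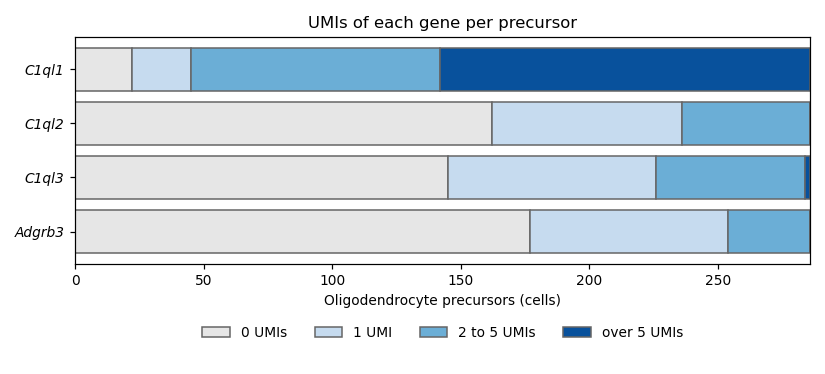
Number of the 286 precursors with 0, 1, 2 to 5 or more than 5 UMIs of each gene. More than 5 UMIs were found in 144 cells for C1ql1, 2 cells for C1ql3 and 0 cells for C1ql2 and Adgrb3.

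Ligands and receptor occurred in the same cells. Of 286 precursors, 107 (37.4%) held Adgrb3 with at least 1 ligand, 66 (23.1%) all 3 ligands, 31 (10.8%) all 4 genes and 11 (3.85%) none. Only 13 (4.55%) lacked every ligand, so the first share is close to the share with Adgrb3 alone (38.1%). Thinned to 1000 UMIs, 17 (5.94%) held Adgrb3 with at least 1 ligand and 0 held all 4 genes. C1ql3 was found in 58.7% of the 109 precursors with an Adgrb3 UMI and 43.5% of the 177 without, but the former had more UMIs (median 6192 against 5480). Thinned to 1000 UMIs, the shares were 1 of 25 (4%, 0.101 to 20.4%) and 38 of 261 (14.6%, 10.5 to 19.4%). These intervals overlapped, and 25 cells are too few to decide whether the first difference holds at equal depth. C1ql2 was found in 45.5% of the precursors with a C1ql1 UMI and 18.2% of those without. After thinning it was found in 11.8% (7.34 to 17.6%) and 11.2% (6.1 to 18.4%), which leaves that difference undecided too.

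A cell cycle gate (Mki67, Top2a, Cenpf, Birc5) split the precursors into 18 cycling and 268 other cells, a comparison added after the data were seen. C1ql1 was 438 CPM (330 to 570) in cycling and 1091 CPM (1039 to 1144) in other precursors. It was lower in the cycling cells of each library, with 443, 593 and 59.3 CPM against 1033, 1194 and 1062 CPM, the last of these from 2 cycling cells. Thinned to 1000 UMIs, a C1ql1 UMI was left in 38.9% (17.3 to 64.3%) and 60.8% (54.7 to 66.7%) of the cells. C1ql2 was also lower in the pooled cycling cells, at 47.7 CPM (17.5 to 104), from 6 UMIs, and 124 CPM (107 to 142). Thinned to 1000 UMIs, a C1ql2 UMI was left in 11.1% (1.38 to 34.7%) of cycling and 11.6% (8 to 16%) of other precursors. For both C1ql1 and C1ql2 the thinned intervals overlapped. With 18 cycling cells, the thinned shares cannot decide whether C1ql2 differed. C1ql3 was 151 CPM (91 to 236) and 148 CPM (130 to 168), and Adgrb3 was 103 CPM (55.1 to 177) and 89.1 CPM (74.9 to 105).

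The levels in precursors were compared among libraries. C1ql1 was 988 CPM (924 to 1055) in library 1, 1152 CPM (1065 to 1245) in library 2 and 987 CPM (861 to 1126) in library 3. Adgrb3 was 96.4, 84.2 and 80.0 CPM, with overlapping intervals. C1ql2 was 109 CPM (88.2 to 132), 113 CPM (86.7 to 144) and 169 CPM (120 to 232), also with overlapping intervals. C1ql3 stood apart in library 3, with 71.1 CPM (40.7 to 116) against 158 CPM (134 to 187) and 163 CPM (131 to 200). It was found in 25.6% of the 43 precursors there and in 56.5% and 49.5% of those of libraries 1 and 2.

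**Figure D4:**
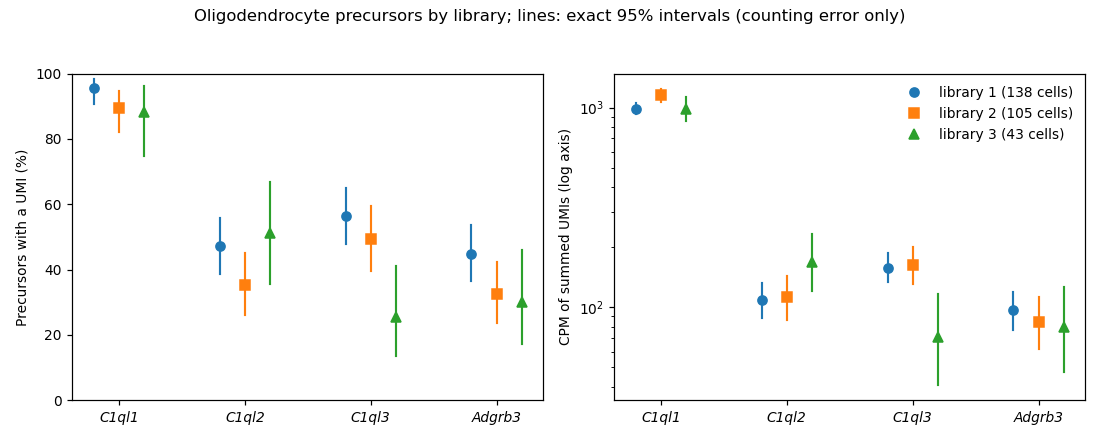
Share of precursors with a UMI (left, in percent) and CPM on a log axis (right) for the 4 genes in libraries 1 to 3, with exact 95% intervals. C1ql3 was lowest in library 3, at 25.6% of cells and 71.1 CPM, where C1ql2 was highest, at 51.2% of cells and 169 CPM.

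Library 3 was also the lowest for C1ql3 in committed and mature cells but not in the 23 cells of the precursor and mature overlap, which held 95.8, 94.9 and 140 CPM. Committed precursors held 174, 149 and 0 CPM, the last over 5 cells with a floor of 60.3 CPM. Mature oligodendrocytes, with 2106, 3411 and 3657 cells, held 16.6 CPM (14.7 to 18.8), 15.2 CPM (13.6 to 17) and 8.37 CPM (7.26 to 9.59). Other genes moved with the library too. In its precursors Lhfpl3, a gate gene, was 756 CPM against 1169 and 1182 CPM, Cspg4 was 760 CPM against 482 and 498 CPM, the myelin gene Mag was 93.4 CPM against 16.6 and 28.7 CPM, and C1qa was 48.9 CPM against 184 and 195 CPM. The part of these in the C1ql3 values was not tested, and library, group and dissection cannot be told apart.

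The gene lists around the C1ql proteins and Adgrb3 were then read in precursors. A gene was counted as higher when its CPM plus 1 was at least 2 times that of the mean of the other classes, among the 11633 genes that reached 20 CPM in at least 1 class. All 4 members were higher, as their choice made likely, with a background of 16.7% of all genes tested and a median log2 ratio of 0.27 over them. From this count nothing was read.

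Partners of the C1ql proteins were high in the same cells. Of 11 neurexins and neurexin ligands, 10 were higher in precursors, 9 had their highest level there, and the median log2 ratio was 2.81. Lrrtm3, a leucine-rich repeat ligand of neurexins, was 223 CPM in precursors and 57.7 CPM in committed precursors, and Lrrtm1 was 45.7 and 8.25 CPM. The exception was Nrxn3, at 99.1 CPM in precursors, 463 CPM in neurons and 532 CPM in neuroblasts, its highest class. Clstn3 was higher in precursors, at 40.3 CPM, but had its highest level in neurons, at 71 CPM. All 7 delta and kainate receptors were higher (median 2.66), among them the kainate receptor subunits Grik2 (45.1 CPM) and Grik4 (23.7 CPM). The neurexin list and this one were also chosen with earlier results of these data known, so nothing was read from their counts. Of 12 genes listed as postsynaptic genes of precursors, 10 were higher (median 2.48), as their choice made likely. Among them were the AMPA receptor subunits Gria3, at 220 CPM, and Gria4, at 176 CPM. Nlgn3 was counted in the neurexin list too, and Cacng4 among the precursor identity genes. The scaffold gene Dlg4, at 33.8 CPM, and the NMDA receptor subunit Grin1, at 10.1 CPM, did not reach the limit. The 12 precursor identity genes were all higher (median 3.22), likewise as their choice made likely, and 8 had their highest level in precursors. Gpr17, Tnr, Neu4 and Sox6 had theirs in committed precursors.

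**Figure D5:**
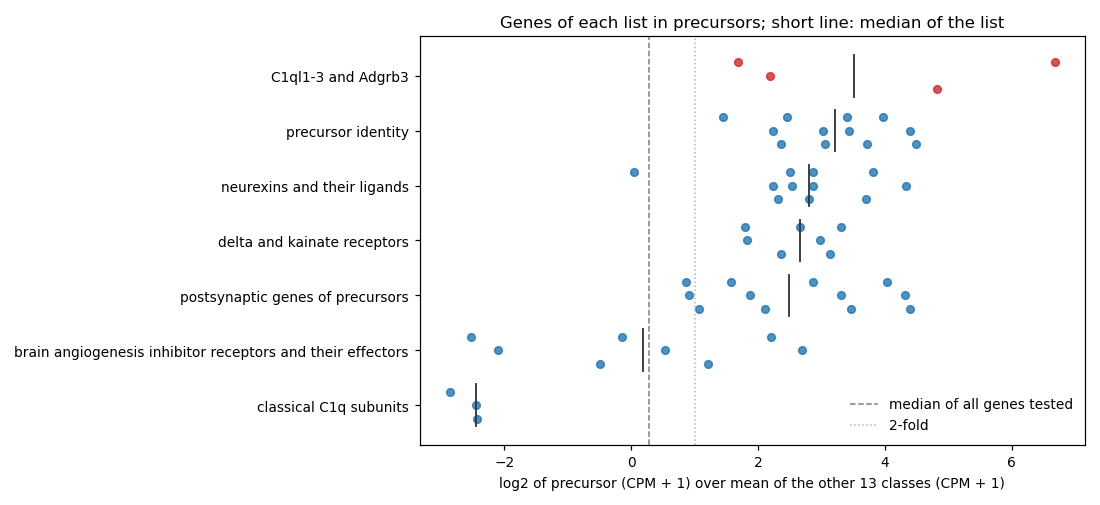
Log2 ratio of CPM + 1 in precursors to that of the mean of the other classes for the genes of each list that were tested, with a short line at the median of the list. The 7 delta and kainate receptors lay above the 2-fold line and the 3 classical C1q subunits below 0, and the dashed line is the median of all 11633 genes, 0.27. The lists were chosen with earlier results of these data known.

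Relatives of the members were mixed. Of the 10 brain angiogenesis inhibitor receptors and effectors, 8 were tested, 3 were higher and 2 lower, with a median log2 ratio of 0.19. Both sister receptors of Adgrb3 were higher, with Adgrb1 at 94.9 CPM and Adgrb2 at 74.8 CPM in precursors and at 116 and 68.7 CPM in astrocytes. The libraries differed, as precursors of libraries 1, 2 and 3 held 86.5, 75.2 and 178 CPM of Adgrb1. For Adgrb2 they held 70.9, 50.2 and 151 CPM. Dock1, which activates Rac1, was 73.0 CPM in precursors, and Rac1 itself, at 228 CPM, was 0.906 times the mean of the other classes. C1ql4 and the cerebellins Cbln1 to Cbln4 did not reach 20 CPM in any class, and Cbln1 was the only one of the 5 with a UMI in precursors, at 8.90 CPM. The classical complement subunits C1qa, C1qb and C1qc, which share the C1q domain, were all lower (median -2.45). They were 170, 158 and 71.8 CPM in precursors and were highest in microglia and macrophages. Levels of a like size were found in mature oligodendrocytes (115, 125 and 61.3 CPM) and astrocytes (143, 173 and 79.7 CPM). T and NK cells, the background class for the members, held 193, 194 and 99 CPM. The precursor values of these subunits were thus not above that class.

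From precursors to committed precursors, 2 of the 4 members, C1ql1 and C1ql2, were at least 2 times lower in the committed cells, against 19.9% of the 7822 genes tested. From this count, too, nothing was read. Of the 11 neurexins and ligands, 7 passed this limit, with a median log2 ratio of -1.2, against -0.26 over all genes tested. As 9 of the 11 had their highest level in precursors, those were bound to be lower in committed precursors. Nothing was read from this count either. The other lists counted 3 of 7 delta and kainate receptors, 5 of 12 precursor identity genes and 5 of 10 postsynaptic genes of precursors. They also counted 2 of 5 brain angiogenesis inhibitor receptors and effectors and 0 of 3 classical C1q subunits.

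The genes whose levels ran most like those of the members were sought by Pearson's r of log2(CPM + 1) over the 14 classes, which share their libraries and gates. C1ql1 was most like 5033426O07Rik (r = 0.974), Has2, a hyaluronan synthase (r = 0.967), Zfp469 (r = 0.963), 5730559C18Rik (r = 0.962) and Car8 (r = 0.961). C1ql2 was most like Fam19a4 (r = 0.934), the retinol carrier Rbp4 (r = 0.933), the contactin Cntn4 (r = 0.929), the dynein Dnah5 (r = 0.921) and the gate gene Pdgfra (r = 0.907). Apart from Pdgfra, these were likewise at 0 to 1.65 CPM in committed precursors. Pdgfra was at 14.8 CPM there, which the gates partly fix, since a cell with Pdgfra and Lhfpl3 UMIs leaves that class. C1ql3 was most like Nalcn, a sodium leak channel (r = 0.957), Tub (r = 0.952), Galnt13 (r = 0.948), B3gat2 (r = 0.947) and Plppr5 (r = 0.943). Of these, Plppr5 was highest in precursors and the others in neurons. The 5 genes most like Adgrb3 included the fucosyltransferase gene Fut9 (r = 0.985), A230057D06Rik (r = 0.975), Gria2 (r = 0.971) and the ephrin receptor gene Epha5 (r = 0.969). Among the members, r was 0.834 for C1ql3 and Adgrb3, 0.706 for C1ql1 and C1ql2, and 0.42 for C1ql2 and Adgrb3.

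Cells outside the classes were checked for the 4 genes. Of the cells that passed no gate, 37 held a Pdgfra UMI without Lhfpl3, and C1ql1 was 600 CPM (461 to 767) in them. In 31 cells with Lhfpl3 but no Pdgfra UMI it was 301 CPM (229 to 388), and in the 1852 with neither it was 2.93 CPM (1.71 to 4.7). At the edge of the gate, the 6 precursors with 1 UMI of each gate gene held C1ql1 at 265 CPM (72.1 to 678). In the 57 cells set aside, it was 408 CPM (364 to 455) and was found in 91.2% of the cells. Other cells that passed several gates held 1.61 CPM (1.23 to 2.06).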

How the data were processed

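The authors dissociated brain tissue of pooled mice with an adult brain dissociation kit and made 3 libraries with the Chromium 3' v3 chemistry. The deposited values are raw UMI counts per gene and cell in 1 matrix, which the authors made with Cell Ranger 3.1.0 and STAR on mm10 (submitters' processing notes, which also name Seurat 3.1.1), with reads down-sampled across libraries.

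Members and gene lists were chosen with earlier results of these data known. Cells with at least 1000 UMIs and at most 30% mitochondrial counts were classed by raw UMIs of marker genes. Cells passing gates of several classes, among them possible doublets, were left out, except that cells passing 2 gates of the oligodendrocyte lineage formed overlap stages and cells passing the neuroblast and neuron gates counted as neuroblasts. No doublet caller was run. Counts were summed over a class and given as CPM. A count of 0 allows up to 3 counts. Library sizes are the sums over all 31053 genes. With 1 sample, no test was made. Named genes were the members, the listed genes, the gate markers and the 5 genes most like each member, among those with 20 CPM in a class. Of the Ensembl identifiers, 99.6% were in the GENCODE annotation of GRCm38, and 35 symbols were duplicated. For each value 11 alternatives were computed. The scripts were tested on simulated data and used Python 3.11.15, NumPy 2.4.6, SciPy 1.17.1, pandas 2.3.3 and Matplotlib 3.10.9. The RefSeq promoters of C1ql2, C1ql3 and Adgrb3 were matched by symbol; C1ql1 was not matched. Values of some listed genes are not reported here.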

Additional observations from a re-analysis of the deposited data

How the results depend on the processing

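Of 44 precursor values under the alternatives, 37 moved by less than the interval of counting error, and the others were 0.768 to 1.18 times the reported value. When cells that also passed another class's gate were kept as precursors, C1ql1 was 840 CPM, C1ql2 90.7 CPM, C1ql3 125 CPM and Adgrb3 70.8 CPM. Thinning to 1000 UMIs in a single random draw gave C1ql3 175 CPM (130 to 230), and its mean CPM per cell was 145 CPM. Without each library in turn, C1ql1 was 987 to 1104.5 CPM, C1ql2 110 to 129 CPM, C1ql3 137 to 160 CPM and Adgrb3 83 to 93.2 CPM. Precursors ranked first for C1ql1 and C1ql2 and neurons for C1ql3 under each of the 11 alternatives. Adgrb3 ranked first in astrocytes with those mixed cells kept (74.2 CPM), after thinning (140 CPM), as the mean CPM per cell (105 CPM) and without library 3 (118 CPM), and in neurons without library 1 (96.2 CPM). The causes were not tested. No paired analysis was possible because the pooled matrix does not tie cells to groups. Depth limits C1ql2, C1ql3 and Adgrb3, each with a median of 0 UMIs per precursor.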
